A study of Mus musculus with 2 samples.

Results

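The 10 genes described here are the blood vessel genes of inflamed mouse skin. Of these, 6 are made by endothelial cells (Pecam1, Cdh5, Kdr, Flt1, Tek and Vwf) and 4 are angiogenic factors or their regulator (Vegfa, Hif1a, Angpt1 and Angpt2). They were chosen by symbol among the 19465 genes of the count matrices, and all 10 were found. Spatial transcriptomics was measured on back skin of 8 week old mice that received 62.5 mg of 5% imiquimod (IMQ) cream a day for 7 days after depilation, which gives a psoriasis-like inflammation. One section came from an S1pr2 f/f mouse, whose S1pr2 alleles are flanked by loxP sites but intact. The other came from an S1pr2 f/f K14-Cre animal. There the keratin 14 promoter drives Cre in keratinocytes, so that these cells and not the endothelium lose S1pr2, a receptor gene for sphingosine 1-phosphate. Both sections are IMQ-treated skin, and no untreated section was analysed here. The sections were 10 μm thick, formalin-fixed and paraffin-embedded, and were read with a probe-based kit on capture areas of 11 mm, where each spot covers a small region that can hold several cells. There was 1 section of 1 mouse per genotype, so no test between genotypes was possible, and all intervals below are 95% intervals that cover counting error only unless stated otherwise.

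Blood vessels grow under the control of a pair of receptor and ligand systems. VEGF-A, the product of Vegfa, binds VEGFR2 (Kdr), the main signalling receptor of endothelial cells, and VEGFR1 (Flt1), which binds it tightly and acts largely as a decoy. The angiopoietins bind the receptor Tie2 (Tek): angiopoietin 1 (Angpt1), from pericytes and other stromal cells, stabilises vessels, and angiopoietin 2 (Angpt2), from endothelial cells, opposes it in many settings. Hif1a encodes the oxygen-regulated subunit of the hypoxia factor HIF-1, for which Vegfa is a classical target. Pecam1 (CD31) and Cdh5 (VE-cadherin) hold endothelial cells together, and Vwf (von Willebrand factor) carries platelets to injured walls. Pecam1 is also found on leukocytes and platelets, Vwf in platelets and megakaryocytes, and Flt1 in monocytes. In skin, the epidermis has no vessels of its own and is fed by plexuses in the dermis and by the vessels of the fat and muscle below.

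In all, 5315351 UMIs were counted on 1282 spots of f/f skin and 2845826 on 981 spots of K14-Cre skin, with medians of 3542.5 and 2319 UMIs per spot. Levels are given as CPM, that is UMIs of a gene per 1000000 UMIs of the same spots. They can be compared between sections, depths and regions for 1 gene but not between genes, because each gene has its own probes. The tissue differed between the sections: 15 keratinocyte markers summed to 56672 CPM in f/f and 17517 CPM in K14-Cre, and 7 skeletal muscle markers to 18687 CPM and 58524 CPM. The floor of unspecific signal differed as well, since 1226 olfactory, vomeronasal, taste and trace amine receptor genes, which skin should hardly express, averaged 2.21 CPM per gene in f/f and 5.98 CPM in K14-Cre. The 2 sections shared 357 spot barcodes, which mark array positions and not cells. S1pr2 itself had 154 UMIs (29.0 CPM, interval 24.6 to 33.9) in f/f and 54 UMIs (19.0 CPM, 14.3 to 24.8) in K14-Cre. In the keratinocyte-marker spots, defined below, it had 11 UMIs (13.1 CPM, 6.52 to 23.4) and 5 UMIs (10.5 CPM, 3.42 to 24.6), where a mean receptor gene stood at 0.860 CPM and 7.52 CPM. Whether the S1pr2 probes lie in the deleted part is not given in the sources used here, so this count does not check the deletion.

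All 6 endothelial genes were measured above the floor in both sections. Vwf had 207 UMIs in f/f and 147 in K14-Cre, Pecam1 198 and 62, Cdh5 183 and 146, Flt1 163 and 173, Tek 116 and 68, and Kdr 105 and 138. Each of the 6 lay above at least 99.7% of the receptor genes of its section. Hif1a was counted most often, with 1344 UMIs in 525 spots of the f/f section and 478 UMIs in 231 spots of the K14-Cre section. Vegfa had 436 UMIs in 259 spots and 236 UMIs in 133 spots. Angpt2, with 70 and 59 UMIs, lay above 99.8% and 99.7% of the receptor genes. Angpt1 was at the floor in f/f, where its 18 UMIs in 16 spots lay above only 85.2% of the receptor genes. In K14-Cre its 47 UMIs fell on 21 spots, and a single spot held 11 of them.

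Depth was measured as the distance of a spot from the nearest surface spot, the uppermost tissue spot of each array column. It was known for the 1203 f/f and 970 K14-Cre spots that lie in connected groups of at least 20 spots. In the f/f section the endothelial genes were scarce near the surface and more abundant below it. Together they summed to 96.0 CPM in the 452 spots within 200 μm of the surface and to 250 CPM in the 751 deeper spots, a log2 difference of 1.38 (interval 1.16 to 1.60). The level was 206 CPM at 200 to 400 μm, highest at 400 to 600 μm with 301 CPM, and 258 CPM and 252 CPM further down. Of the 6 genes, 5 were past 1.5-fold higher in the deeper spots, where 32.2% of the 10789 genes compared were past it in that direction. Fewer endothelial cells in a spot and less RNA per cell cannot be told apart in these counts.

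**Figure D1:**
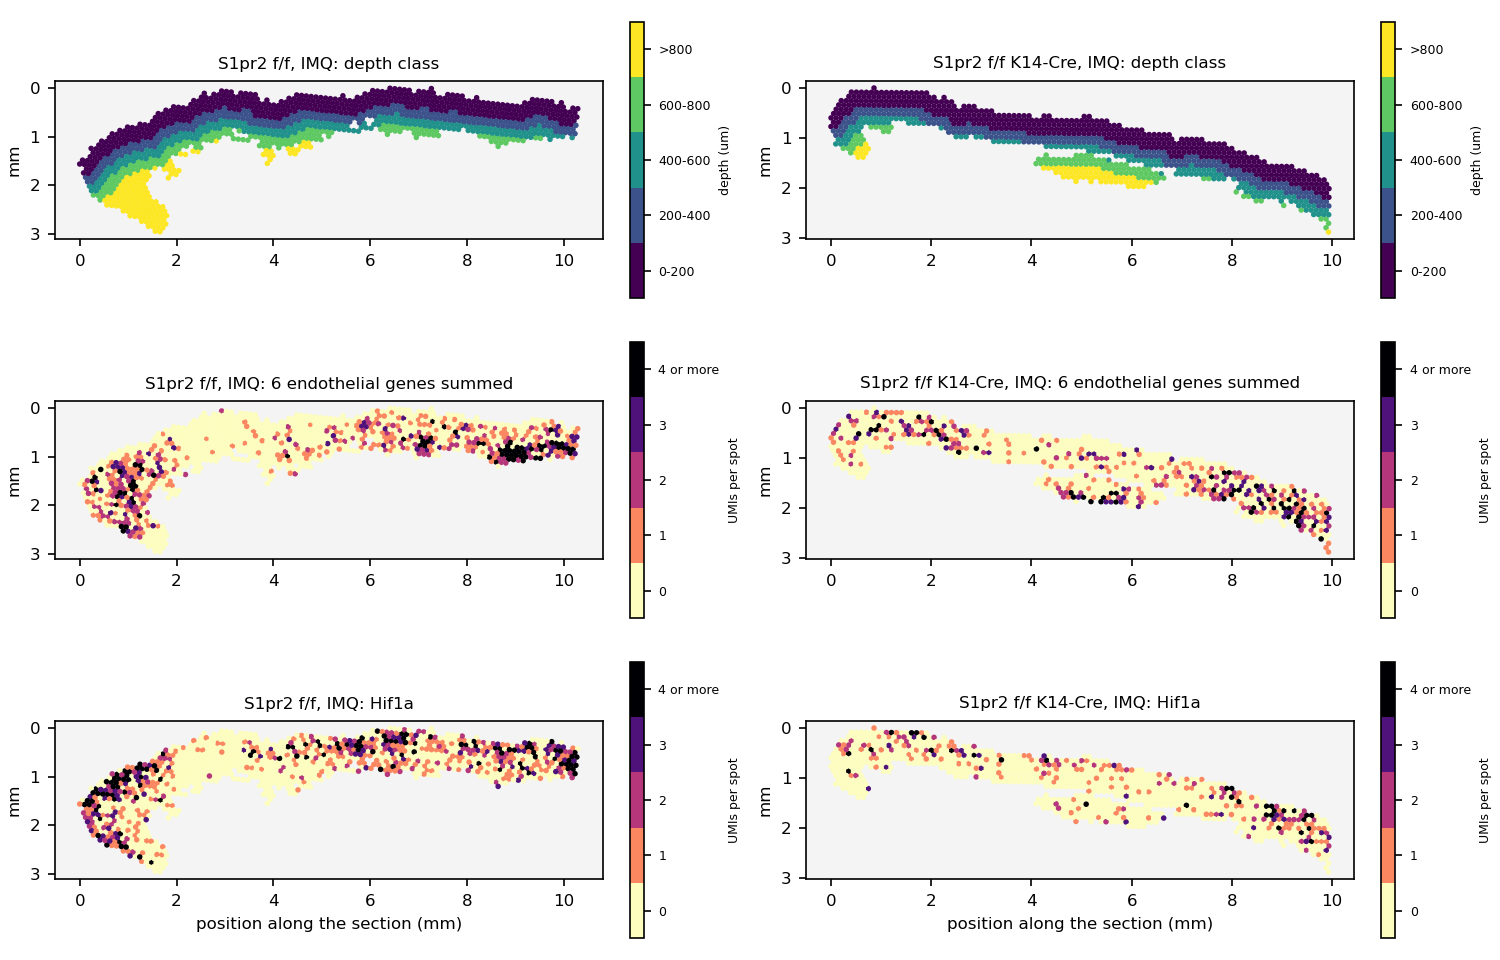
Maps of the 2 sections, with the S1pr2 f/f section in the left column and the K14-Cre section in the right column. Each dot is a spot in a connected group, placed by its position in mm. The top row shows the 5 depth classes in μm, the middle row the UMIs of the 6 endothelial genes summed, and the bottom row the UMIs of Hif1a, as raw counts that also follow how many UMIs a spot has in all. Dark endothelial spots lie in the lower layers of the f/f section and reach the upper layers at the right end of the K14-Cre section, while dark Hif1a spots line the upper edge of both.

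The f/f genes differed in how steeply they increased. Tek went from 6.92 CPM at the surface to 33.2 CPM in the deeper spots (log2 2.26), and Vwf from 13.4 to 58.7 CPM (log2 2.13). Pecam1 went from 17.7 to 52.4 CPM (log2 1.56), Cdh5 from 19.5 to 46.3 CPM (log2 1.25), and Kdr from 11.7 to 25.8 CPM (log2 1.15). The intervals of these 5 differences all lay above 0. Flt1 was the exception, with 26.8 CPM at the surface, 33.2 CPM below and a log2 difference of 0.31 whose interval, from −0.16 to 0.79, held 0. Without Flt1 the summed difference was 1.65. Vwf reached 99.6 CPM at 400 to 600 μm, and the 4 red cell genes measured (Hbb-bs, Hbb-bt, Hba-a2 and Alas2) were also highest there, with 5016 CPM against 128 CPM at the surface.

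In the K14-Cre section the endothelial genes were nearly as abundant at the surface as below it. They summed to 238 CPM in the 435 spots within 200 μm and to 273 CPM in the 535 deeper spots, a log2 difference of 0.20 (−0.02 to 0.42). At 200 to 400 μm the level was 298 CPM, at 400 to 600 μm 247 CPM and at 600 to 800 μm 159 CPM. The deepest class, 66 spots with 372 CPM, lay mostly in a strip below the middle of the section, and muscle markers stood at 140988 CPM and fat markers at 3508 CPM in it. Pecam1 (log2 1.35, 11.6 to 29.4 CPM) and Cdh5 (log2 0.97, 33.0 to 64.9 CPM) were past 1.5-fold higher below the surface, where 20.9% of 9556 genes were. Tek at log2 0.44, Vwf at 0.39 and Kdr at 0.12 were not past it, and their intervals held 0. Flt1 went the other way, with 83.4 CPM at the surface and 44.1 CPM below (log2 −0.92, −1.38 to −0.47). It was among the 31% of genes past 1.5-fold lower in the deeper spots. With the border set at 300 μm the summed log2 difference was −0.11, and without Flt1 it was 0.57. The floor was higher at the surface, 8.24 CPM per receptor gene, than in the deeper classes, 3.01 to 5.67 CPM. With it taken off, the summed difference was 0.39. Pecam1 at the surface, 11.6 CPM from 14 UMIs, lay near that floor.

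The depth contrasts of the sections were set against each other, without a test because each comes from 1 section. The summed contrast was 1.18 lower on the log2 scale in K14-Cre than in f/f (interval of the difference −1.48 to −0.88). Lower contrasts in K14-Cre were not particular to these genes. The median of all genes compared was 0.24 in f/f and −0.13 in K14-Cre. Medians of the dermis markers were 1.22 and 0.71, of the fat markers 3.09 and 1.19 and of the muscle markers 5.11 and 3.69. The part of tissue layering in the difference was not tested. With the floor taken off, the summed contrasts were 1.46 in f/f and 0.39 in K14-Cre. The floor was not taken off the contrasts of single endothelial genes. For Tek the difference was −1.82, for Vwf −1.74, for Flt1 −1.23 and for Kdr −1.03, each with an interval below 0. For Pecam1 it was −0.22 (−1.21 to 0.78) and for Cdh5 −0.28 (−0.99 to 0.44), so for these 2 the counts did not show a difference. UMIs of a gene came in clumps within spots, so the intervals from counting are narrow. Intervals from the spread over spots, which are not replicates, kept the summed, Tek, Vwf and Flt1 differences below 0, and the upper end for Kdr was 0.0021.

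**Figure D2:**
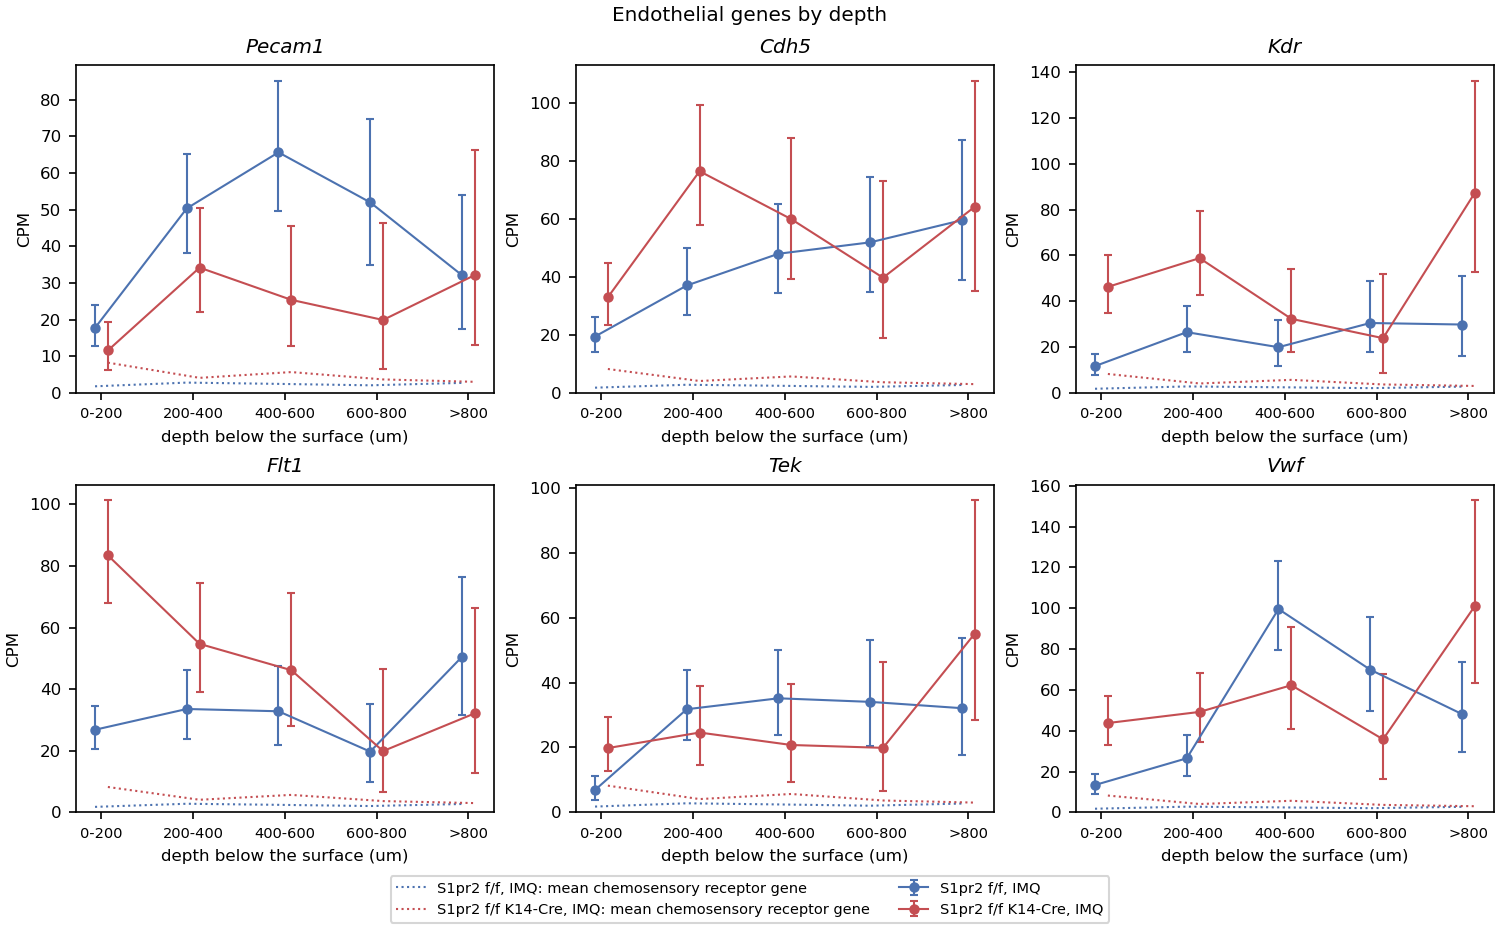
Levels of the 6 endothelial genes in CPM (vertical axis) in 5 classes of depth in μm (horizontal axis), S1pr2 f/f in blue and K14-Cre in red, with exact Poisson 95% intervals. The dotted lines give the mean chemosensory receptor gene of the same spots. At 0 to 200 μm the K14-Cre points of Cdh5, Kdr, Flt1, Tek and Vwf lie above those of f/f, whereas the Pecam1 point is at 11.6 CPM against 17.7 CPM.

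The spots were also grouped by their expression, with all vascular and hypoxia genes listed here left out of the grouping. A region was named after the marker list with the largest share when at least 50% of its markers had 2 times or more the level of all other spots. Regions that were named so for dermis or hair markers, or for no list, are called here by their leading gene. In f/f, the 171 keratinocyte-marker spots (led by the cornified envelope gene Lce3a, median depth 0 μm) had the lowest endothelial sum, 44.0 CPM from 37 UMIs. Flt1 made up 26 of those 37 UMIs, and the other 5 genes had 1 to 5 UMIs each. The endothelial sum was 125 CPM in the 211 spots led by the sebaceous gland gene Awat1 and 154 CPM in the 62 spots led by the hair follicle stem cell keratin gene Krt15. It was 277 CPM in the 157 spots led by Mup17. These held 7 of 9 dermis, 5 of 7 fat and 5 of 7 hair markers at 2-fold or more over the other spots. The endothelial sum was highest in the 123 fat-marker spots (led by Pck1, also with 5 of 7 fat markers) with 397 CPM, and stood at 218 CPM in the 304 muscle-marker spots. Vwf in the fat-marker spots had 126 CPM, Pecam1 82.8 CPM and Cdh5 77.6 CPM, whereas Kdr had only 17.3 CPM there and 43.8 CPM in the Mup17-led spots.

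In K14-Cre the fat-marker spots were again highest, with 495 CPM in 117 spots led by Hp, Cfd and Fabp4. Pecam1 was concentrated there, with 32 of its 62 UMIs and 78.1 CPM, against 7.52 CPM in the 325 muscle-marker spots and 8.42 CPM in the 144 keratinocyte-marker spots. The keratinocyte-marker spots held 92 endothelial UMIs or 194 CPM, of which Flt1 gave 43 UMIs (90.6 CPM), Kdr 19 (40.0 CPM) and Cdh5 15 (31.6 CPM). The floor was high in these spots, 7.52 CPM per receptor gene, so that the 4 UMIs each of Pecam1 and Tek, 8.42 CPM, were at the level of the floor. The Awat1-led spots had 245 CPM, the Krt15-led spots 231 CPM and the muscle-marker spots 179 CPM. A region of 92 spots led by the developmental muscle genes Tnnc1 and Myh8, which also held 6 of 9 dermis markers, had 289 CPM. At the coarser resolution of 0.5 it merged with the fat-marker spots, whose endothelial level was then 372 CPM.

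Other endothelial genes followed the same order of depth in f/f. Of 20 further genes of blood endothelium, 17 had enough UMIs for the comparison with depth, and 15 of them were past 1.5-fold higher below the surface and none past it lower, against 32.2% and 11.4% of all genes, with a median log2 difference of 1.18 against 0.24. In K14-Cre it was 6 of 14 higher and 1 lower, against 20.9% and 31% of all genes, with a median of 0.47 against −0.13. Plvap, which forms the diaphragms of fenestrated endothelium, had log2 differences of 1.12 in f/f and 0.58 in K14-Cre. Egfl7, secreted by endothelial cells, had 1.69 and 0.61, Eng, the endothelial TGF-β co-receptor, 0.87 and 0.78, and Rasip1, which regulates endothelial junctions, 0.36 and −0.37. Of 10 genes of pericytes and vascular smooth muscle, 8 were past 1.5-fold higher below the surface and none lower in f/f, and 5 were past it higher and 1 lower in K14-Cre. Acta2 and Tagln, contractile genes of smooth muscle, had 1.80 and 2.33 in f/f and 1.71 and 1.42 in K14-Cre. The next by UMIs, Notch3 and Pdgfrb, receptor genes of mural cells, had −0.31 and 0.27 in f/f and −0.86 and −0.58 in K14-Cre. Of the venular genes, 3 of 4 were past it higher in f/f and 1 of 3 in K14-Cre. That 1 was Ackr1, a chemokine receptor gene, with 2.92 and 1.18, while Ephb4, a venous ephrin receptor gene, had 0.24 and −0.10 and Selp, which encodes P-selectin, 0.73 and −0.26.

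The endothelial genes were found together with different companions. In f/f, spots with a UMI of Pecam1, Cdh5, Tek or Vwf held 1.58 to 1.73 times the level of the other 5 endothelial genes found in spots without it. Those with Kdr held 1.18 times that level (log2 interval −0.08 to 0.55). Spots with Flt1 held 0.706 times that level (log2 interval −0.82 to −0.19), and 1.02 times in K14-Cre (−0.34 to 0.38). The same Flt1 spots held 1.30 times the level of the 6 leukocyte genes in f/f, and 1.66 times in K14-Cre, whereas spots with Pecam1, Cdh5, Tek or Vwf held 0.530 to 0.660 times that level in f/f. These leukocyte sums were dominated by S100a8, a neutrophil gene that keratinocytes also make in inflammation. Spots with Vwf stood out by the red cell genes, 5.53 times the level of spots without it in f/f and 2.72 times in K14-Cre. In K14-Cre, the spots with Cdh5 held 1.37 times the level of the other endothelial genes, and those with Kdr and Tek 0.768 and 0.706 times. Spots with Pecam1 held 1.11 times (log2 interval −0.29 to 0.55) and those with Vwf 0.983 times (−0.41 to 0.34) there. These values also follow tissue layer and spot depth.

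Over tiles of depth class and position along the section (19 tiles in f/f and 18 in K14-Cre), the genes whose level was most like the endothelial sum, out of 2786 compared, were the haemoglobin genes Hbb-bs (Pearson r 0.86 in f/f and 0.73 in K14-Cre) and Hba-a2 (0.83 and 0.65). They were followed by Cald1 (0.65 and 0.62), which encodes the contractile regulator caldesmon, and Plekho2 (0.59 and 0.60). The lipid genes Thrsp (0.57 and 0.60), Plaat3 (0.71 and 0.56) and Decr1 (0.75 and 0.54) and the cobalamin carrier gene Tcn2 (0.62 and 0.53) completed the 8. Tiles of 1 section share a library and neighbouring tissue, and these correlations are a description.

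Hif1a had its highest levels at the surface in both sections. In f/f it went from 349 CPM within 200 μm to 219 CPM at 200 to 400 μm and 131 CPM at 400 to 600 μm, and in K14-Cre from 268 to 103 and 90.0 CPM. The log2 difference between deeper and surface spots was −0.97 (−1.13 to −0.81) in f/f and −1.52 (−1.81 to −1.24) in K14-Cre, and Hif1a was past 1.5-fold lower below the surface in both, where 11.4% of all genes compared were in f/f and 31% in K14-Cre. In f/f the level was higher again, 209 CPM, in the spots over 800 μm deep. Of those 137 spots, 100 lay in the first of 4 segments along the section, which holds a folded end, and keratinocyte markers were higher there too, with 34532 CPM against 22144 CPM at 600 to 800 μm. Without that segment the f/f contrast of Hif1a was −1.01. The 15 keratinocyte markers had median contrasts of −1.60 in f/f and −3.31 in K14-Cre.

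Vegfa was spread over all depths. It had 87.4, 64.5, 91.4, 86.0 and 75.7 CPM in the 5 depth classes of f/f and 85.9, 98.4, 69.2, 55.7 and 73.5 CPM in those of K14-Cre. The log2 differences between deeper and surface spots, −0.17 in f/f and −0.09 in K14-Cre, had intervals that held 0 (−0.44 to 0.11 and −0.47 to 0.30). The regions differed more than the depth classes. In f/f the level was 134 CPM (111 to 161) in the keratinocyte-marker spots, 62.9 CPM (51.3 to 76.3) in the Awat1-led spots directly below, 61.0 CPM in the Mup17-led spots, 93.1 CPM in the fat-marker spots and 91.4 CPM in the muscle-marker spots. In K14-Cre the keratinocyte-marker spots had 128 CPM (98.3 to 165), the Awat1-led spots 63.6 CPM (39.4 to 97.2), the Tnnc1-led spots 63.5 CPM, the fat-marker spots 85.4 CPM and the muscle-marker spots 86.4 CPM. Among these 5 regions the keratinocyte-marker spots came first in both sections, the fat-marker and muscle-marker spots next and the Awat1-led spots and the spots with dermis markers last, but the intervals of neighbours in this order overlapped, also those of the keratinocyte-marker spots (111 to 161 and 98.3 to 165) and the fat-marker spots (70.0 to 122 and 59.5 to 119). The K14-Cre muscle-marker spots held 107 spots led by Cdnf with 127 CPM and 166 led by Myoz2 with 63.9 CPM.

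Hif1a and Vegfa shared the keratinocyte-marker spots as their highest named region but not the layer below. Hif1a had 337 CPM (299 to 379) in the keratinocyte-marker spots of f/f and 329 CPM in its Awat1-led spots. In K14-Cre the values were 335 CPM (285 to 391) and 233 CPM (184 to 291). Hif1a was lowest in the muscle-marker spots of f/f with 128 CPM, and in K14-Cre in the Tnnc1-led and muscle-marker spots with 72.2 and 77.7 CPM.

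**Figure D3:**
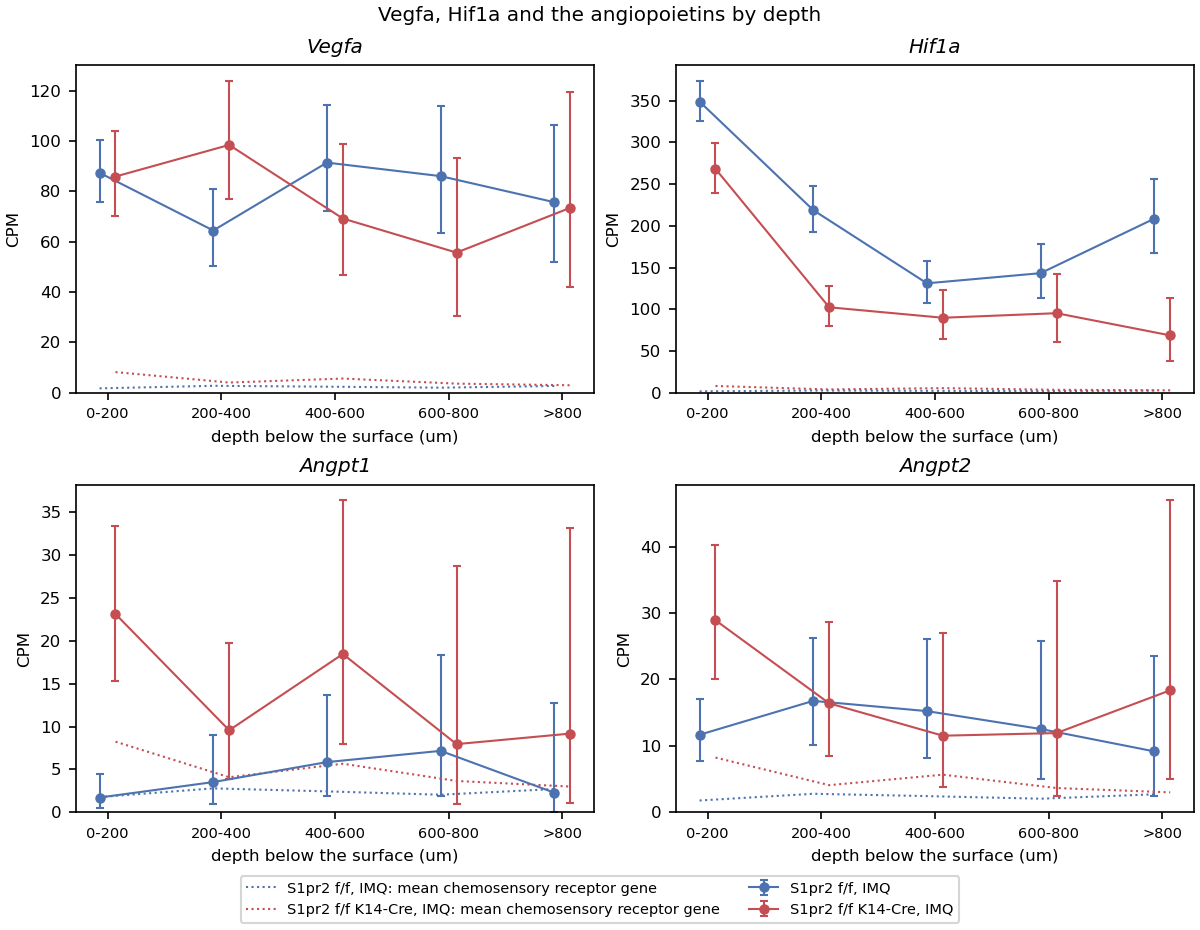
Levels of Vegfa, Hif1a, Angpt1 and Angpt2 in CPM (vertical axis) in 5 classes of depth in μm (horizontal axis), S1pr2 f/f in blue and K14-Cre in red, with exact Poisson 95% intervals and the mean chemosensory receptor gene as dotted lines. Hif1a starts at 349 and 268 CPM and is lower below the surface, and Vegfa stays between 55.7 and 98.4 CPM. Angpt2 lies above the dotted line of its section at every depth, and Angpt1 at the surface lies on it in f/f (1.73 CPM) and above it in K14-Cre (23.1 CPM).

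Genes that HIF-1 is known to drive had no single depth. Of 12 measured targets, 10 could be compared in f/f, with 2 past 1.5-fold higher and 3 past it lower below the surface, and 12 in K14-Cre, with 2 higher and 5 lower. Of all genes compared 32.2% were past it higher and 11.4% lower in f/f, and 20.9% and 31% in K14-Cre. The glucose transporter gene Slc2a1 resembled Hif1a, with log2 differences of −1.06 and −3.19, as did Egln3, a prolyl hydroxylase gene that is both a target and a brake of HIF, with −0.99 and −1.84. Pdk1, which turns pyruvate away from the mitochondria, had −0.26 and −1.23, and Pgk1, a glycolytic enzyme gene, had −0.51 in f/f and 0.39 in K14-Cre. Among the other HIF subunit genes, Epas1, the HIF-2α gene that endothelial cells express strongly, had 0.84 in f/f and 0.01 in K14-Cre. Vegfb and Vegfd, the other VEGF ligands counted most often, lay below the surface in both sections, with log2 differences of 2.20 and 1.20 for Vegfb and of 1.41 and 1.34 for Vegfd.

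The angiopoietins were counted too rarely for a map of their source. Angpt2 in f/f was at 11.7 CPM at the surface and 14.4 CPM below, and it was highest in the 208 spots led by Iqgap2, which held a median of only 646 UMIs in all (46.7 CPM from 9 UMIs), and in the Mup17-led spots (23.9 CPM from 18 UMIs). In K14-Cre it was at 28.9 CPM at the surface and 14.7 CPM below (log2 difference −0.98, −1.79 to −0.19, or −1.99 to 0.04 from the spread over spots), with 31.6 CPM from 15 UMIs in the keratinocyte-marker spots and 9.76 CPM from 4 UMIs in the fat-marker spots. Angpt1 in f/f had 1 to 5 UMIs in each depth class and no UMI in the keratinocyte-marker and the fat-marker spots, where the intervals reach up to 4.38 and 6.36 CPM. In K14-Cre it had 28 UMIs at the surface, where the floor was 8.24 CPM and Angpt1 23.1 CPM. Of the 13 UMIs in the keratinocyte-marker spots, 11 came from the single spot named above. Angptl4, a HIF target that acts on lipoprotein lipase rather than on Tie2, was past 1.5-fold higher below the surface in f/f, with a log2 difference of 1.68, and had −0.79 in K14-Cre.

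**Figure D4:**
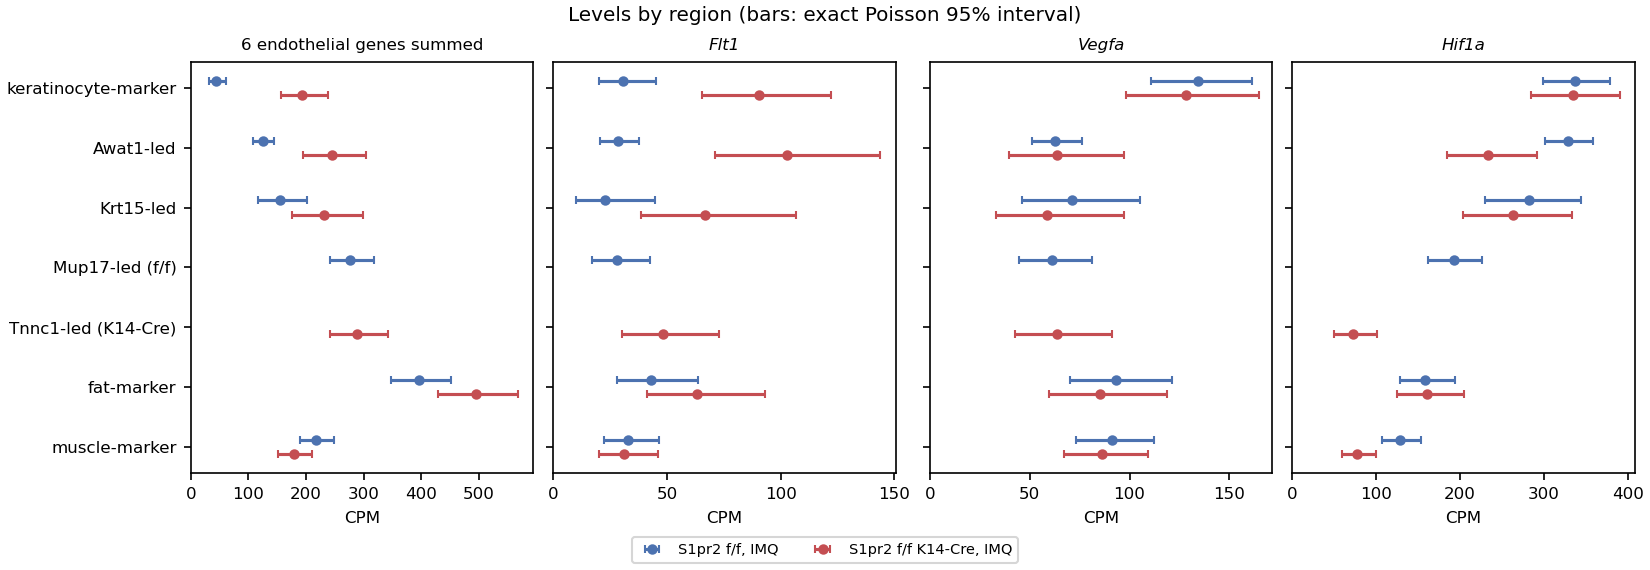
Levels in CPM (horizontal axes) of the 6 endothelial genes summed, Flt1, Vegfa and Hif1a in regions found by grouping spots on their expression (vertical axis), S1pr2 f/f in blue and K14-Cre in red, with exact Poisson 95% intervals. The Mup17-led region was found in f/f and the Tnnc1-led region in K14-Cre. Vegfa and Hif1a lie on top of each other in the keratinocyte-marker spots (134 and 128 CPM, 337 and 335 CPM), where the endothelial sum lies at 44.0 and 194 CPM.

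The start regions of Vegfa and of its 2 receptors are shown because these 3 genes take the signal from the tissue to the vessel, and because HIF-1 acts through a short DNA core. The 250 bases before the annotated start were taken from RefSeq on build GRCm38.p6, where 5 of the 10 genes were matched. The core was searched as ACGTG or GCGTG on both strands, and matches are in capitals. Each sequence runs 5′ to 3′ on the minus strand, on which all 3 genes lie: Vegfa at chr17:46032378-46032627, a second Vegfa start at chr17:46025164-46025413, Kdr at chr5:75978456-75978705 and Flt1 at chr5:147726012-147726261.
Vegfa: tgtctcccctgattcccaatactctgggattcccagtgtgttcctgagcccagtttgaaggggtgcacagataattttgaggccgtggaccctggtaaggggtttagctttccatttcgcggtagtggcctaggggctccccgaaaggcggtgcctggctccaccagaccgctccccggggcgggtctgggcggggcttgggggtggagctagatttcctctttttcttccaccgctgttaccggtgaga
Vegfa second start: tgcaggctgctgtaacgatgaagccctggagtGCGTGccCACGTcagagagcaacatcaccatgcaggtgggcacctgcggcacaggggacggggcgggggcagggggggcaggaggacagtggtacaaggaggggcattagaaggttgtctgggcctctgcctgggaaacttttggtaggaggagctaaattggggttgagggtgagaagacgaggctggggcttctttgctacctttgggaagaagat
Kdr: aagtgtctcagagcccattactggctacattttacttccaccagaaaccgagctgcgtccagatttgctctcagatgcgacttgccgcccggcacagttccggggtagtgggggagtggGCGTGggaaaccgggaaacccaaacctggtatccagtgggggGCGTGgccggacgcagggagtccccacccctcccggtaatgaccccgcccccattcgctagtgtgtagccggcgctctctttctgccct
Flt1: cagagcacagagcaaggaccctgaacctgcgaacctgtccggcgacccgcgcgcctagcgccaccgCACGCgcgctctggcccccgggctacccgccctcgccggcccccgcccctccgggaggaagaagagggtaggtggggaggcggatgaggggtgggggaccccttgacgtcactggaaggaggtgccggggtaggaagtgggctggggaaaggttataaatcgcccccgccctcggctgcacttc
Kdr held 2 matches, Flt1 1, the second Vegfa start 2 and the first none. By its coordinates the second Vegfa start lies downstream of the first on the minus strand. Its matches therefore lie downstream of the first start, within the gene, and not in sequence before it. Whether this second region acts as a promoter, or is part of the transcript from the first start, was not tested. Sequence further than 250 bases before a start was not searched. Of all 32817 start regions of this length, 38.6% held at least 1 match, so a match is common and is a description of these letters only.

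Between the sections, the endothelial genes did not move as one. Of the 6, Kdr and Flt1 were past 1.5-fold higher in K14-Cre and Pecam1 past it lower, where 30.2% of the 13626 genes compared were past it higher and 15% lower (18.4% and 30% under TMM scaling, which trims the genes of extreme ratio or level). Without TMM scaling these counts were near the shares of all genes. Kdr stood at 19.8 CPM in f/f and 48.5 CPM in K14-Cre (log2 ratio 1.30, 0.92 to 1.68), and Flt1 at 30.7 and 60.8 CPM (0.99, 0.67 to 1.30). Cdh5 was at 34.4 and 51.3 CPM (0.58, 0.25 to 0.90), Vwf at 38.9 and 51.7 CPM (0.41, 0.09 to 0.72) and Tek at 21.8 and 23.9 CPM (0.13, −0.32 to 0.58). Pecam1 was at 37.3 and 21.8 CPM (−0.77, −1.21 to −0.36). The sum was 183 and 258 CPM, a log2 ratio of 0.50 (0.36 to 0.64, or 0.29 to 0.70 from the spread over spots). The median of all genes compared was 0.17, and TMM scaling lowered every ratio by 0.37, which left the sum at 0.12, turned Tek to −0.24 and kept Kdr at 0.92, Flt1 at 0.62 and Pecam1 at −1.15. The genotype cannot be told apart from the mouse or the section.

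Of the other 4 genes, Angpt1 and Angpt2 were past 1.5-fold higher in K14-Cre and Hif1a past it lower. Of all genes compared 30.2% were past it higher and 15% lower, or 18.4% and 30% under TMM scaling. Angpt2 (0.28) was not past it under TMM scaling, nor Hif1a as a mean over spots (−0.37) or counted once per spot (−0.26). Vegfa stood at 82.0 CPM in f/f and 82.9 CPM in K14-Cre (log2 ratio 0.02, −0.22 to 0.25), with TMM scaling at −0.36. Hif1a was at 253 and 168 CPM (−0.59, −0.74 to −0.44), Angpt2 at 13.2 and 20.7 CPM (0.65, 0.13 to 1.18, or −0.02 to 1.33 from the spread over spots) and Angpt1 at 3.39 and 16.5 CPM (2.29, 1.47 to 3.16). With each gene counted once per spot, which takes away clumps, the Angpt1 ratio was 1.32. The summed receptor genes had a log2 ratio of 1.43, so the low counts of Angpt1 and Angpt2 rest on a floor that differed between the sections. With that floor taken off, the ratio of Angpt2 was 0.43 and that of Angpt1 3.17, the latter from only 6.23 UMIs left in f/f.

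**Figure D5:**
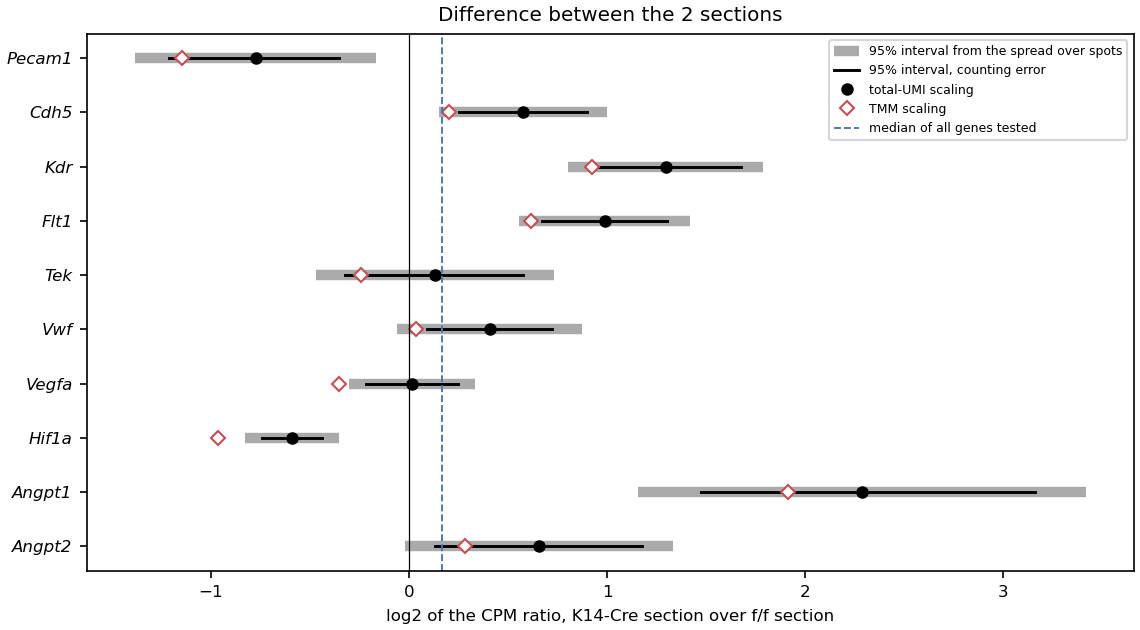
Log2 ratio of the level in the K14-Cre section over that in the S1pr2 f/f section (horizontal axis) for the 10 genes (vertical axis). Black points and lines give total-UMI scaling with the 95% interval from counting, grey bars the 95% interval from the spread over spots, open diamonds TMM scaling, and the dashed line the median of all genes compared (0.17). Kdr, Flt1, Cdh5, Vwf, Angpt1 and Angpt2 lie above 0 and Pecam1 and Hif1a below it under both scalings, Vwf at only 0.04 under TMM scaling. Tek and Vegfa lie above 0 under total-UMI scaling and below it under TMM scaling.

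At equal depth and under total-UMI scaling, the endothelial sum was higher in K14-Cre within 400 μm of the surface and not at 400 to 800 μm. Within 200 μm of the surface the endothelial sum was 96.0 CPM in f/f and 238 CPM in K14-Cre (log2 ratio 1.31, 1.05 to 1.57), and 1.14 with the floor taken off. The log2 ratio was 0.53 (0.26 to 0.81) at 200 to 400 μm, −0.29 (−0.63 to 0.04) at 400 to 600 μm and −0.70 (−1.24 to −0.18) at 600 to 800 μm. It was 0.56 in the deepest class. The sections held different tissue in every depth class, so equal depth does not mean equal tissue. TMM scaling, which lowers every ratio by 0.37, was not applied by depth class. Kdr had a ratio of 1.99 at the surface, Vwf of 1.71, Flt1 of 1.64, Tek of 1.52 and Cdh5 of 0.76, whereas Pecam1 had −0.62 (−1.61 to 0.29). With the floor taken off, Kdr had 1.94, Vwf 1.61, Flt1 1.59, Tek 1.17, Cdh5 0.49 and Pecam1 −2.26. At 200 to 400 μm Cdh5, Kdr, Flt1 and Vwf had 0.70 to 1.15. Pecam1 and Tek had −0.56 (−1.30 to 0.14) and −0.37 (−1.27 to 0.48) there, with intervals that held 0. At 400 to 600 μm Cdh5, Kdr and Flt1 had 0.32 to 0.70 with intervals that held 0. Pecam1, Tek and Vwf had −1.37 to −0.68 there, and the interval of Tek (−2.02 to 0.35) held 0. Keratinocyte markers were at 93150 CPM in the surface spots of f/f and 36659 CPM in those of K14-Cre, dermis markers at 8039 and 14627 CPM, and muscle markers at 1025 and 7033 CPM. At 200 to 400 μm keratinocyte markers were at 33726 and 3367 CPM and muscle markers at 15822.5 and 77054 CPM. The values at 400 to 600 μm were 22952.5 and 3120 CPM for keratinocyte markers and 43293 and 83359 CPM for muscle markers. Those at 600 to 800 μm were 22144 and 4427 CPM, and 58436 and 138507 CPM. The share of these layers in the difference was not tested.

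Between regions of the same marker name the difference depended on the region, but the spots were grouped in each section by itself. The keratinocyte-marker spots of f/f were a Lce3a-led group with 11 of 15 markers at 2-fold or more. Those of K14-Cre joined a Gjb6-led group with 15 of 15 and an Alox8-led group with 10 of 15. The layers compared may therefore differ. In the keratinocyte-marker spots the endothelial sum had a log2 ratio of 2.14 (1.58 to 2.73), or 1.94 with the floor taken off, from 37 and 92 UMIs, and Flt1 alone had 1.55 (0.82 to 2.31). In the fat-marker spots the ratio of the sum was 0.32 (0.04 to 0.60), but −0.09 (−0.33 to 0.15) at the resolution of 0.5, where Pecam1 had −0.95 (−1.57 to −0.32) and Vwf −0.48 (−0.95 to −0.02). At the main resolution Kdr stood at 17.3 and 87.9 CPM (2.35, 1.31 to 3.52), and Pecam1 (−0.08), Vwf (−0.13) and Flt1 (0.56) had intervals that held 0. In the muscle-marker spots the sum had −0.28 (−0.60 to 0.03) and Pecam1 −2.68 (−4.20 to −1.45), from 47 UMIs in f/f and 6 in K14-Cre. Hif1a, lower in the K14-Cre section as a whole, had a ratio of −0.01 (−0.30 to 0.27) in the keratinocyte-marker spots, 0.02 (−0.46 to 0.49) in the fat-marker spots (−0.52, −0.93 to −0.10, at the resolution of 0.5) and −0.73 (−1.19 to −0.27) in the muscle-marker spots. Vegfa had −0.06 (−0.54 to 0.40), −0.12 (−0.78 to 0.52) and −0.08 (−0.56 to 0.39) in these regions.

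Position along the section gave a measure of unevenness, although segments of 1 section are not replicates. Each section was cut into 4 segments. The endothelial sum ranged from 134 to 204 CPM over the f/f segments and from 205 to 284 CPM over the K14-Cre segments, without overlap. Flt1 (16.1 to 35.3 against 45.7 to 66.2 CPM), Hif1a (199 to 298 against 98.2 to 190 CPM) and Angpt1 (2.88 to 4.48 against 5.08 to 24.1 CPM) did not overlap either. The lowest Angpt1 segment of K14-Cre had 3 UMIs, and its 5.08 CPM lay below the mean receptor gene of that section (5.98 CPM). TMM scaling, which lowers every ratio by 0.37, was not applied to the segments. Nor was the floor taken off, which averaged 2.21 CPM per receptor gene in f/f and 5.98 CPM in K14-Cre. It enters the sum once for each of the 6 genes. For the sum, the highest f/f segment (203.7 CPM) and the lowest K14-Cre segment (204.9 CPM) nearly touched. Taking off these mean floors, or the TMM shift, would turn the order of these values, so the ranges of the sum would then overlap. Kdr, Cdh5 and Vwf were higher in K14-Cre in 15 of 16 pairs of segments each and Pecam1 in 1 of 16. Vegfa was higher in K14-Cre in 8 of 16 pairs.

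Further vascular genes were compared between the sections by cell type. Of 20 further genes of blood endothelium, 12 were past 1.5-fold higher and none past it lower, against 30.2% higher and 15% lower among all genes compared, with a median log2 ratio of 0.60 against 0.17. The floor was not taken off for these lists. Its log2 ratio of 1.43 raises ratios below that value, most where a gene has few UMIs. Fewer genes may therefore be past 1.5-fold higher without it. Plvap had 0.68 (0.53 to 0.84), Eng 0.77 (0.57 to 0.97), Rasip1 1.21 (0.94 to 1.48) and Egfl7 −0.11 (−0.36 to 0.15). Of 6 lymphatic genes 4 were past it higher, among them Prox1, the factor that specifies lymphatic endothelium, with 1.88 (1.23 to 2.55) from 31 and 61 UMIs. Pdpn, the gene of that list with the most UMIs (780 and 414), had −0.01 (−0.19 to 0.16). Of 7 arterial and tip cell genes 4 were past it higher, of 6 venular genes 2, and of 10 mural genes 3 were past it higher and 2 lower, with Tagln at 0.85, Acta2 at −0.61, Notch3 at 0.08 and Pdgfrb at −0.48. The venular and mural counts were near the share of all genes. Under TMM scaling the genes past it higher came to 4 of blood endothelium, 2 lymphatic, 1 arterial or tip cell, 1 venular and 0 mural, and those past it lower to 0, 0, 0, 1 and 3, with the median of the blood endothelial list at 0.23. Of all genes 18.4% were then past it higher and 30% lower. The 4 of 20 blood endothelial genes past it higher were near the share of all genes, while 0 of 20 were past it lower. TMM scaling lowers all ratios by the same amount, so the distance of a list's median from that of all genes stays the same. The 4 red cell genes were all past it lower, and summed to 1457 CPM in f/f (7743 UMIs) and 336 CPM in K14-Cre (955 UMIs). Of 4 platelet genes 1 was past it higher, and the whole list of 6 summed to 359 and 384 CPM with none at 0. Of 5 leukocyte genes 1 was past it higher and 1 lower, and the list of 6 summed to 6130 and 2288 CPM with none at 0, mostly S100a8. Whether leukocytes, platelets or blood in the vessels had a part in the differences of Pecam1, Flt1 and Vwf was not tested.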

How the data were processed

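The deposited matrices hold raw UMI counts, which the authors obtained with Space Ranger 3.0.0 (file header) and mm10 (submitters' processing notes), along with spot positions. Spots over tissue entered without further filter for whole sections. Depth left out 79 f/f and 11 K14-Cre spots outside connected groups of at least 20 spots.

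Levels are UMIs per 1000000 UMIs of the same spots, with exact Poisson intervals for levels and conditional binomial intervals for ratios. On Poisson counts simulated for 13626 genes between the sections, the intervals for ratios held the true ratio in 95.6%. Such counts lack the clumps of the real ones, so this checks the calculation only. Intervals from the spread over spots and a fold of 1.5 among genes with at least 50 UMIs, with no test, complete the comparisons. Depth on a simulated strip followed the true depth with r 0.99 and a median offset of −122 μm. Clusters were found per section among spots of 50 or more UMIs (scanpy 1.11.5, igraph 0.11.9, Python 3.11.15, 2000 variable genes, 20 components, 15 neighbours, Leiden resolution 1). TMM factors (edgeR 4.0.16) were 0.879 and 1.14.

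The 10 genes and all lists were chosen with earlier results of these data known. Beside them, at most 4 genes per list, those with the most UMIs, and the 8 genes most like the endothelial sum (log2 of CPM plus 10, tiles of at least 10 spots, genes with at least 200 UMIs in each section) are named, with the leading genes of regions and all red cell genes.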

Additional observations from a re-analysis of the deposited data

Results flagged for a closer look

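The depth contrast, deeper over surface spots, pointed one way in f/f and the other way in K14-Cre for 3 genes. The contrast of K14-Cre minus that of f/f was −1.23 on the log2 scale for Flt1 (0.31 in f/f and −0.92 in K14-Cre). It was −1.28 for Angpt2 (0.31 and −0.98) and −2.43 for Angpt1 (1.44 and −0.99). With 1 section per genotype these differences were not tested. The f/f contrasts of all 3 had intervals that held 0. By the spread over spots, so did the K14-Cre contrasts of Angpt2 (−1.99 to 0.04) and Angpt1 (−2.52 to 0.53) and the difference for Angpt2 (−2.64 to 0.07). Angpt1 rested on 18 UMIs in f/f and on 47 in K14-Cre, 11 of them in 1 surface spot.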

How the results depend on the processing

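No paired analysis was possible because each group has 1 section. Of 96 values under alternatives, 79 moved by less than their counting error or, for counts of genes, by less than 1.5 times, and 17 moved further. Of these, Vegfa between sections and the K14-Cre depth contrast of the endothelial sum changed sign, from values whose intervals held 0. TMM scaling, which lowers all ratios by 0.37, gave 0.12 for the endothelial sum, −0.36 for Vegfa and −0.96 for Hif1a between sections, and changed the genes past 1.5-fold to 2501 higher and 4090 lower in K14-Cre, from 4116 and 2044. With a minimum of 20 UMIs 7666 genes were past it higher, and with 1 UMI 8391. Hif1a stood at −0.37 as a mean over spots. Counting each gene once per spot, an alternative chosen after seeing the data, gave 0.29 for the endothelial sum, −0.26 for Hif1a and 1.32 for Angpt1. Angpt1 had 3.17 with the receptor floor taken off. Angpt2 had 2.04 in spots thinned to 1000 UMIs, from 6 and 22 UMIs. The depth contrast of the endothelial sum without Flt1, also chosen after seeing the data, was 1.65 in f/f and 0.57 in K14-Cre, and the K14-Cre contrast at a border of 300 μm was −0.11. The fat-marker endothelial level of K14-Cre was 372 CPM at resolution 0.5. The depth contrasts of Hif1a (−1.63 to −0.88) and Vegfa (−0.21 to 0.07) stayed within their error under all 12 alternatives each. The cause of these shifts was not tested. Low counts limit Angpt1, Angpt2 and all single endothelial genes within regions.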

Other observations

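Angiogenic factors outside the VEGF and angiopoietin systems differed in depth and between the sections. Cxcl12, a chemokine that draws progenitors and leukocytes and acts on vessels, had 514 CPM in f/f and 187 CPM in K14-Cre (log2 ratio −1.46, −1.60 to −1.32). It lay below the surface in f/f (log2 difference 2.04) and was even in K14-Cre (0.15, −0.10 to 0.41). The thrombospondins Thbs1 and Thbs2, which restrain vessel growth, had log2 ratios of −0.04 (−0.20 to 0.13) and 0.47 (0.32 to 0.61). Pdgfa had 0.73 (0.51 to 0.94). Of 9 such genes, 4 were past 1.5-fold higher and 1 lower in K14-Cre, against 30.2% and 15% of all genes, and under TMM scaling 0 were past it higher and 2 lower.

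Efnb2, an arterial gene that keratinocytes also make, had a surface bias that was larger in K14-Cre (log2 difference −2.10, −2.45 to −1.76) than in f/f (−0.36, −0.59 to −0.13). The 15 keratinocyte markers differed the same way, with median log2 differences of −3.31 in K14-Cre and −1.60 in f/f. Svep1, a matrix protein gene of the Tie1 axis, had 2.18 in f/f and −0.15 in K14-Cre. Among the VEGF co-receptors, Nrp1 had log2 ratios between sections of 0.98 (0.49 to 1.47) and Nrp2 of 0.54 (0.28 to 0.80).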
